A study of Mus musculus with 4 samples.

Results

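Secretory airway cells were described in 4 single-cell RNA libraries of mouse lung, 2 labelled Dnmt1 CKO and 2 labelled wild type. A barcode was taken as a secretory cell by its own counts of unique molecular identifiers (UMIs, 1 per captured RNA molecule). It had at least 500 genes, at most 20% mitochondrial UMIs, at least 5 UMIs of Scgb1a1, at least 5 of Scgb3a2 and at least 1 of Cyp2f2. It had no UMI of Cdh5 or Ptprc, the markers of endothelial and blood cells, and under 0.2% of its UMIs came from Col1a1, Col1a2 and Col3a1. UMIs were allowed in fewer than 3 of 6 ciliated genes and in fewer than 4 of 6 alveolar type 2 genes. The rule found 92 cells among the 20601 barcodes that passed the gene and mitochondrial filters and the 27815 barcodes deposited. Genotype played no part in the rule, but measured levels of these genes did, so their levels are given as a description and support nothing.

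Secretory cells, called club cells in the mouse, line the conducting airways between ciliated cells. They release secretoglobins and other defence proteins into the airway fluid, carry oxidative and conjugating enzymes that act on inhaled compounds, and serve as a source of new ciliated and secretory cells. Notch signals from neighbouring cells hold them in the secretory state in the developing airway, and their full enzyme content is reached only after birth.

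The lungs were taken at E18.5, late in gestation, and the whole organ was digested to single cells. The mutants carried Tbx4-rtTA, Tet-O-Cre and Dnmt1-D/D, where Tbx4 drives a doxycycline-dependent activator in the lung mesenchyme, the activator switches on Cre, and Cre deletes part of Dnmt1, the enzyme that copies DNA methylation after replication. The wild type mice are given no further genotype, and the labels do not say whether they received doxycycline. The airway epithelium is not the cell layer that Tbx4 marks. The labels do not say whether the libraries came from separate animals, so p-values measure the spread between these 4 libraries.

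The Dnmt1 CKO libraries held 49582593 and 54334468 UMIs in replicates 1 and 2, and the wild type libraries held 48213065 and 56760219. Dnmt1 CKO replicate 1 and wild type replicate 2 held 8282 and 12616 Y-linked UMIs and the other 2 libraries held 0 and 1, so by these transcripts each group held both sexes. Xist, which female cells make, gave 40352 UMIs in Dnmt1 CKO replicate 1 as well, against 17 in wild type replicate 2, but only 75 of the 40352 lay in its secretory, alveolar type 2 and ciliated cells, beside 1290 Y-linked UMIs there. Between 4 and 10 barcode sequences were shared by any pair of libraries among those that passed the filters, and none of them was a secretory cell. Scrublet called between 78 and 228 doublets per library and none of them was a secretory cell, so no doublet was removed. Dnmt1 itself gave 1 and 10 UMIs in the secretory cells of Dnmt1 CKO replicates 1 and 2, against 1 and 4 UMIs in those of wild type replicates 1 and 2. In CPM, a gene's UMIs scaled to the UMIs of all genes in these cells, that is 6.94 and 20.2 in Dnmt1 CKO against 8.04 and 17.8 in wild type, the groups overlapped, and Dnmt1 did not pass the low-count filter of the test. A 3′ tag outside the deleted part would not register the deletion, so these counts do not check the labels. Germline genes, a list of 20 that mark other Dnmt1 CKO cells of these lungs, summed to 20.8 and 2.02 CPM in Dnmt1 CKO secretory cells and to 0 in wild type ones, where a count of 0 allows up to 24.1 and 13.3 CPM. The same list summed to 133 and 191 CPM in the Dnmt1 CKO barcodes with a UMI of Cdh5 or Ptprc and none of Epcam or Cdh1, against 7.79 and 6.97 CPM in the wild type ones.

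The promoters of 2 genes are shown because DNA methylation falls on CG dinucleotides and because these genes frame the results. Cyp2f2 belongs to the rule, and Upk3a had the smallest p-value among the genes named below as higher in Dnmt1 CKO secretory cells. Capitals mark each CG, and the sequences are those of RefSeq on GRCm38.p6, given for the bases just before the annotated start of each gene. Cyp2f2 lies at chr7:27119705-27119908 on the plus strand and Upk3a at chr15:85016891-85017140 on the plus strand.
Cyp2f2: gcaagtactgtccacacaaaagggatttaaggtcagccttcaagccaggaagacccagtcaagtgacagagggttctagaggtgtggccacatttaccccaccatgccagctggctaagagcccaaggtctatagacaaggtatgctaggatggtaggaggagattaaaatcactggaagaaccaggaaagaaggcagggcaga
Upk3a: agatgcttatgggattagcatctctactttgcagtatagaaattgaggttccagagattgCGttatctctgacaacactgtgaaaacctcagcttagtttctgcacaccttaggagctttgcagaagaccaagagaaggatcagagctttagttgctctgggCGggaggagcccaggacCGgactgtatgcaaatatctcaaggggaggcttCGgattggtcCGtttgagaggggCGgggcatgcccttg
The Cyp2f2 stretch holds 0 CG in 204 bases, and its full window of 300 bases around the start also holds 0. The Upk3a stretch holds 6 CG in 250 bases, and its full window holds 9. The CG were counted on the plus strand, where a CG reads the same on the other strand. Across all 32851 promoter windows of 300 bases the median was 7 CG (quartiles 3 and 20), and 43.6% of windows held 5 or fewer. Among the 2499 windows of the genes tested in secretory cells the median was 23 CG (quartiles 15 and 31). No methylation was measured here.

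Dnmt1 CKO replicates 1 and 2 held 13 and 50 secretory cells, against 9 and 20 in wild type replicates 1 and 2. As a share of the barcodes that passed the filters this was 0.295% (Wilson 95% interval 0.173 to 0.505) and 0.869% (0.659 to 1.14) in Dnmt1 CKO, against 0.169% (0.0887 to 0.320) and 0.392% (0.254 to 0.605) in wild type. Dnmt1 CKO replicate 2 was highest, wild type replicate 1 was lowest, and the groups overlapped. The intervals cover counting error only, and the 2 Dnmt1 CKO libraries differed from each other by more than that error. An exact permutation test of 2 libraries against 2 cannot go below 0.333, so none was run. As a share of barcodes with an Epcam or Cdh1 UMI, which mark epithelium, secretory cells made up 1.63% and 3.29% in Dnmt1 CKO, against 0.865% and 1.71% in wild type, and the groups overlapped here too. With only 2 UMIs of Scgb1a1 and of Scgb3a2 asked for and no Cyp2f2, Dnmt1 CKO replicate 2 would hold 116 cells (2.01%), whereas the other libraries would hold 11 to 30.

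That library also carried the most free secretory RNA. In barcodes with a UMI of Cdh5 or Ptprc and none of Epcam or Cdh1, which should lack the gene, Scgb1a1 was seen in 6.98% and 66.7% of Dnmt1 CKO barcodes and in 12.7% and 29.8% of wild type barcodes. Their level was 8.70 and 140 CPM in Dnmt1 CKO and 16.8 and 39.4 CPM in wild type, at median depths of 8837 and 6462 UMIs in Dnmt1 CKO and 5319 and 7043 UMIs in wild type. Secretory cells had median depths of 6873 and 8271 UMIs in Dnmt1 CKO and of 11957 and 6400 UMIs in wild type. Cyp2f2 was seen in 0.212% and 2.55% of the same Dnmt1 CKO barcodes, and in 1.04% and 1.5% of the wild type ones. The part of this free RNA in the number of cells found was not tested.

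The alveolar type 2 threshold cut through a dense part of the data, and those on Scgb1a1, Scgb3a2 and Cyp2f2 touched few barcodes when each was taken alone. Loosened together, as above, they moved the count more. Dnmt1 CKO replicates 1 and 2 went from 13 and 50 to 15 and 116 cells, and wild type replicates 1 and 2 from 9 and 20 to 11 and 30. With the rest of the rule met, 3 and 18 Dnmt1 CKO barcodes and 4 and 10 wild type barcodes had UMIs in 3 or more of the ciliated genes. Another 7 and 31 Dnmt1 CKO barcodes and 5 and 14 wild type barcodes had UMIs in 4 or more of the alveolar type 2 genes. Just inside that line, 5 and 25 Dnmt1 CKO cells and 6 and 13 wild type cells had UMIs in exactly 3 of them. Only 1 and 3 Dnmt1 CKO barcodes and 1 and 1 wild type barcodes failed for want of a Cyp2f2 UMI alone. Between 2 and 4 Scgb3a2 UMIs lay 0 and 5 Dnmt1 CKO barcodes and no wild type barcode, and members with 5 to 19 UMIs of it numbered 1 and 3 in Dnmt1 CKO and 1 and 0 in wild type.

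The 3 defining genes were carried at high and variable shares. Scgb1a1, the secretoglobin CC10 and the main secreted protein of club cells, took a median of 2.87% of a cell's UMIs in Dnmt1 CKO replicate 1 (lowest 0.307%, highest 5.00%) and 5.35% in replicate 2 (0.0503% to 21.3%). It took a median of 3.99% in wild type replicate 1 (0.887% to 7.23%) and 5.95% in wild type replicate 2 (0.844% to 21.3%). Cells of the same library thus differed more than the libraries did, and replicate 2 of each group had the higher median.
Scgb3a2, a second secretoglobin that appears early in airway development, took medians of 2.2% and 3.77% in Dnmt1 CKO, against 4.28% and 3.37% in wild type. Its highest cell reached 13.5% and 13.8% in Dnmt1 CKO and 12.9% and 18.9% in wild type. Cyp2f2, the cytochrome P450 that activates naphthalene in mouse airways, took medians of 0.175% and 0.235% in Dnmt1 CKO, against 0.257% and 0.245% in wild type. Both Dnmt1 CKO medians of Cyp2f2 were below both wild type medians, and the single cells overlapped over most of their range.

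**Figure D1:**
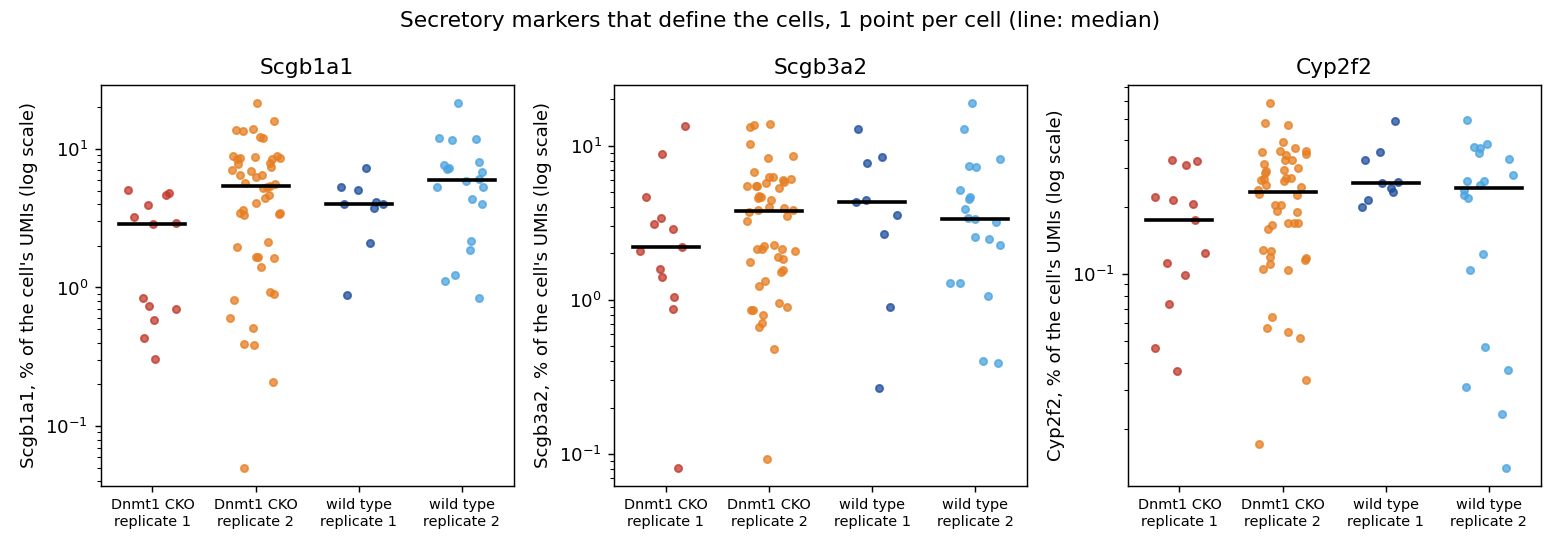
Each point is 1 secretory cell, its height is the percent of the cell's UMIs that came from Scgb1a1, Scgb3a2 or Cyp2f2 (log scale), and the line is the library's median. The cells of the 2 Dnmt1 CKO libraries (13 and 50) and of the 2 wild type libraries (9 and 20) overlap for all 3 genes, and the medians of Cyp2f2 are 0.175% and 0.235% against 0.257% and 0.245%.

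Summed over the cells of a library, these genes reached the following levels. Scgb1a1 stood at 25366 and 59886 CPM in Dnmt1 CKO, against 33811 and 80270.2 CPM in wild type. Scgb3a2 stood at 36132 and 38782 CPM in Dnmt1 CKO, against 44980.1 and 46070.4 CPM in wild type. Cyp2f2 stood at 1826 and 2362 CPM in Dnmt1 CKO, against 2901 and 2833 CPM in wild type. The groups overlapped for Scgb1a1 and not for the other 2 genes, which were lower in both Dnmt1 CKO libraries. The level of secretoglobins in the members follows from the rule, so no test is given.

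The name was checked against markers. A list of 17 further secretory genes summed to 24387 and 27754 CPM in Dnmt1 CKO secretory cells and to 26950 and 27125 CPM in wild type ones. In alveolar type 2 cells of the same libraries it summed to 3673 and 5402 CPM in Dnmt1 CKO and to 3574 and 3688 CPM in wild type. In ciliated cells it summed to 8750 and 11399 CPM in Dnmt1 CKO and to 13746 and 10245 CPM in wild type. The secretory list was thus higher in secretory cells than in either other airway or alveolar class in every library.
Ciliated genes outside the rule, 14 in all, summed to only 194 and 329 CPM in Dnmt1 CKO and to 378 and 284 CPM in wild type. Alveolar type 2 genes outside the rule, also 14, summed to 743 and 1606 CPM in Dnmt1 CKO and to 988 and 2389 CPM in wild type, against 78000 to 106472 CPM in alveolar type 2 cells. Sftpc, the surfactant protein that is their most abundant transcript, stood at 201 and 588 CPM in Dnmt1 CKO secretory cells and at 169 and 173 CPM in wild type ones. In the barcodes with Cdh5 or Ptprc it stood at 257 and 777 CPM in Dnmt1 CKO and at 291 and 281 CPM in wild type, higher than in the secretory cells of each library.
The basal cell genes Krt5 and Trp63 and the mucin gene Muc5b had 0 UMIs in all 92 cells, which allows up to 3.03 CPM and a share of up to 3.26% of cells with a UMI. The list of 10 haemoglobin and other erythroid genes summed to 757 and 2039 CPM in Dnmt1 CKO, against 13515 and 400 CPM in wild type. Wild type replicate 1 stood apart there, and a single cell held most of it, as given with the haemoglobin genes below.

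**Figure D2:**
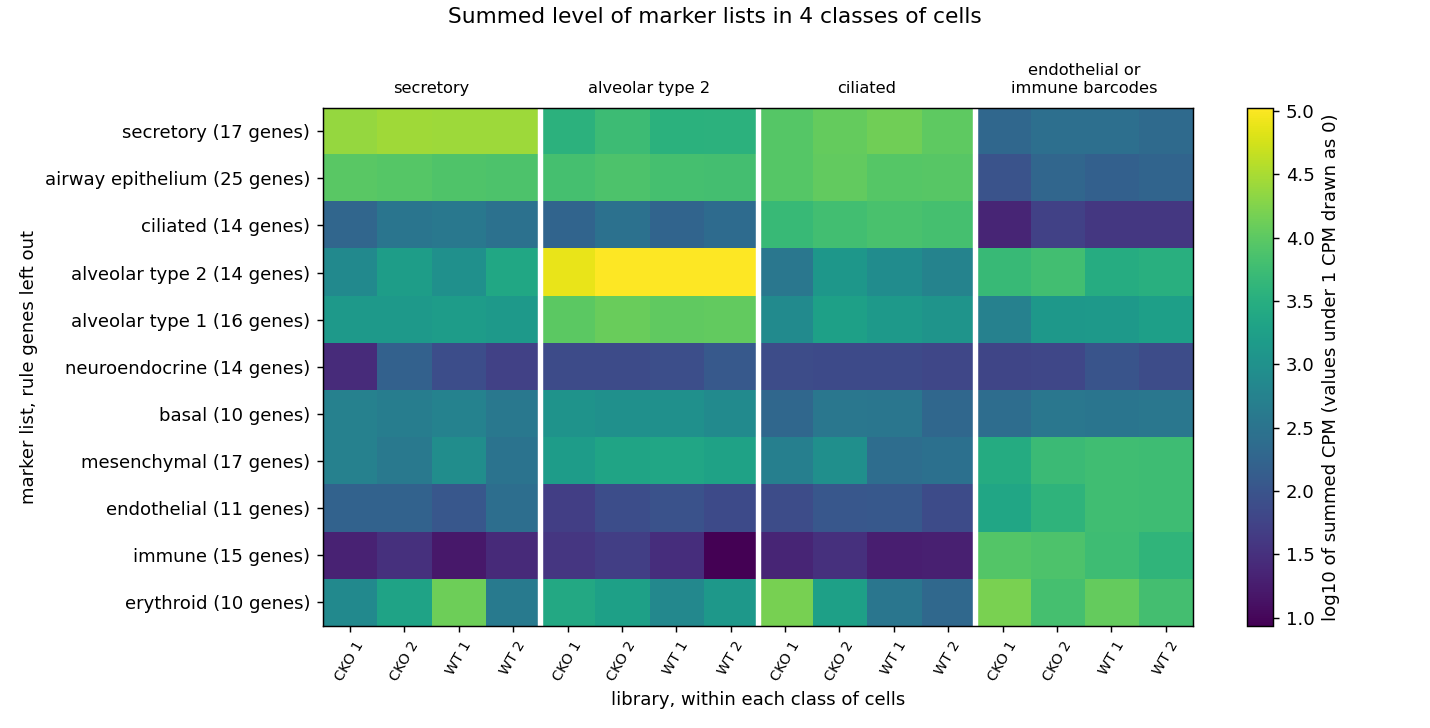
Each row is a marker list without the genes of the rule and each column is a library within a class of cells, with colour showing the log10 of the list's summed CPM. In secretory cells the secretory row is bright in all 4 libraries (24387, 27754, 26950 and 27125 CPM from left to right) and the ciliated row is dark (194 to 378 CPM), and the erythroid row is brightest in wild type replicate 1 (13515 CPM).

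To find what else the cells had in common, each gene's CPM in secretory cells was divided by the higher of its CPM in alveolar type 2 and ciliated cells of the same library, and genes were ordered by the lowest of the 4 ratios. This ordering describes cells that were chosen by their transcripts and is no test. Scgb3a2 led with a lowest ratio of 2.82, and Itm2a, a small membrane protein, followed with 2.53. Mgst1, a microsomal glutathione transferase, had a lowest ratio of 2.30 and stood at 2402 and 2655 CPM in Dnmt1 CKO secretory cells, against 2515 and 1399 CPM in wild type ones.
Cldn10, a tight junction claudin used as a club cell marker, had a lowest ratio of 2.29 and stood at 1555 and 2322 CPM in Dnmt1 CKO, against 2089 and 2087 CPM in wild type. Cbr2, a carbonyl reductase of mouse airways, stood at 6685 and 9182 CPM in Dnmt1 CKO, against 10004 and 7865 CPM in wild type. Krt15, a keratin of airway progenitor cells, stood at 833 and 790.1 CPM in Dnmt1 CKO, against 1149 and 697 CPM in wild type. For all 3 of these genes the groups overlapped.
Trf, the iron carrier transferrin, stood at 3068 and 3457 CPM in Dnmt1 CKO, against 2571 and 6231 CPM in wild type, again with overlap. Ciliated cells also held secretory transcripts, and Scgb3a2 itself reached 12825 and 12363 CPM there in Dnmt1 CKO and 11497 and 11978 CPM in wild type. The ciliated class takes in barcodes that failed the secretory rule only by their ciliated genes. These made up 3 of 19 and 18 of 62 ciliated cells in Dnmt1 CKO, and 4 of 13 and 10 of 30 in wild type. Their part in the secretory transcripts of that class was not tested. Of the 20 leading genes, 12 had at least 1 promoter window, 15 windows in all, with a median of 6 CG (quartiles 4 and 22), and 46.7% of them held 5 or fewer.

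Shares of cells with a UMI were compared after thinning each cell to 3000 UMIs, which left out 2 and 6 shallower Dnmt1 CKO cells and 1 and 3 wild type cells. Cbr2, Hp and Selenbp1 were then seen in 100% of the remaining secretory cells of every library, and Cldn10 in 100% and 97.7% of Dnmt1 CKO cells and in 100% of wild type cells. Sox2, the transcription factor that marks the airway lineage, was seen in 36.4% and 18.2% of Dnmt1 CKO cells and in 37.5% and 17.6% of wild type cells (unthinned, 61.5% and 42.0% against 77.8% and 35.0%). In the Cdh5 or Ptprc barcodes Sox2 was seen in 0% and 0.0884% in Dnmt1 CKO and in 0% and 0.0786% in wild type at the same thinned depth, and Cbr2 in 4.10% and 8.40% in Dnmt1 CKO and in 3.56% and 3.85% in wild type. Krt15 was seen in 81.8% and 68.2% of Dnmt1 CKO cells and in 100% and 70.6% of wild type cells (unthinned, 84.6% and 86.0% against 100% and 80.0%). Mki67 or Top2a, both made by dividing cells, was seen in 0% and 2.27% of Dnmt1 CKO secretory cells and in 0% of wild type ones (unthinned, 15.4% and 8% against 11.1% and 5%). After thinning, 0 of 11 cells in Dnmt1 CKO replicate 1 allows a share of up to 27.3%, and 0 of 8 and 0 of 17 cells in wild type allow up to 37.5% and 17.6%. For each of these genes the 2 genotypes overlapped or shared a value.

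Dnmt1 CKO was compared with wild type by summing the UMIs of the secretory cells in each library and testing the sums with edgeR's quasi-likelihood test. The sums came to 144053 and 494891 UMIs in Dnmt1 CKO and to 124455 and 225177 UMIs in wild type, and 2498 genes had enough counts to be tested. The low-count filter asks for enough counts in 2 libraries, so a gene can pass it by the group where it is higher. No gene was called (0%) at a Benjamini-Hochberg adjusted p under 0.05. The lowest adjusted p was 0.683, 120 genes had an unadjusted p under 0.05 (54 higher and 66 lower in Dnmt1 CKO), and DESeq2 also called 0 genes, with 20 at an unadjusted p under 0.05. Without the low-count filter edgeR called 18 of 14376 genes, 3 higher and 15 lower. With the replicate number as a block it called 19 of 2498 genes, 4 higher and 15 lower, but the labels do not say what these numbers stand for. After scaling, groups did not overlap for 416 genes with higher values in Dnmt1 CKO (16.7%) and for 408 with lower values (16.3%). The median log2 fold change of all tested genes was -0.01. With 1 library left out, 1 group holds a single library, which is assumed to vary like the other group. Calls from those fits are therefore not comparable with the full fit. On simulated sums of the same depth the test found 12 of 81 genes changed 2-fold, 35 of 57 changed 4-fold and 50 of 62 changed 8-fold, with 3 false calls. Every simulated gene had the same dispersion of 0.058, a measure of spread between libraries, and only genes with enough expected counts were changed. The weight of single cells was not simulated, so these numbers may not carry over to the real sums. Even in this setting moderate changes were mostly below the test's reach. Single cells also weighed heavily: the deepest cell gave 35.1% and 7.40% of the secretory UMIs in Dnmt1 CKO and 34.7% and 28.6% in wild type.

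Genes to be named had to show no overlap between the groups and an average log2 CPM of at least 4. Gene models, haemoglobin, mitochondrial and rule genes were left out. Of the genes that remained, the 12 with the smallest p in each direction are named next, and none of them passed the test. Absence of overlap was a condition for naming and is no result for these genes. Upk3a, a uroplakin membrane protein that marks a subset of club cells near neuroendocrine cells in the mouse, gave 118 and 324 UMIs in Dnmt1 CKO, against 39 and 21 UMIs in wild type. On the CPM scale this was 819 and 655 in Dnmt1 CKO, against 313 and 93.3 in wild type. The log2 fold change was 1.83 (SE 0.43, edgeR adjusted p = 0.683). It was called without wild type replicate 1, at 2.78 (edgeR adjusted p = 1.61e-05), and without Dnmt1 CKO replicate 1, at 1.76 (edgeR adjusted p = 0.0167), and the adjusted p over its 16 alternatives ran from 1.61e-05 to 0.997. Without wild type replicate 2 it was 1.20 and not called. The gene (ENSMUSG00000022435.6) is protein coding and lies on chromosome 15 at 85017141 to 85022547, plus strand, on GRCm38.p6.
At 3000 UMIs a cell, Upk3a was seen in 63.6% and 43.2% of Dnmt1 CKO secretory cells, against 37.5% and 17.6% of wild type ones (unthinned, 69.2% and 62.0% against 66.7% and 30.0%). The thinned groups did not overlap and the unthinned ones did. In the Cdh5 or Ptprc barcodes Upk3a stood at 0.622 and 0.714 CPM in Dnmt1 CKO and at 0 and 0.276 CPM in wild type. It was lower in alveolar type 2 cells, at 11.1 and 27.1 CPM in Dnmt1 CKO and at 4.14 and 37.7 CPM in wild type. In ciliated cells it stood at 261 and 199 CPM in Dnmt1 CKO and at 96.3 and 335 CPM in wild type. Its promoter is the one printed above with 6 CG.

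Other genes with higher values in Dnmt1 CKO included Fabp5, Cldn18 and the immediate early gene Ier2. The alveolar type 2 list had a median log2 fold change of 0.57, alveolar type 1 of -0.17 and immediate early of 0.04, against -0.01 over all genes tested. Groups did not overlap for 3 higher and 0 lower alveolar type 2 genes, for 1 and 3 alveolar type 1 genes and for 3 and 1 immediate early genes. Over all genes tested these shares were 16.7% and 16.3%. Of the genes past the filter, 3 alveolar type 2 genes had a positive and 2 a negative log2 fold change, as did 1 and 6 alveolar type 1 genes and 11 and 10 dissociation and immediate early genes. Fabp5, a fatty acid carrier that alveolar type 2 cells make in quantity, stood at 132 and 123 CPM in Dnmt1 CKO, against 40.2 and 35.5 CPM in wild type (log2 fold change 1.52, SE 0.37, edgeR adjusted p = 0.683). In Dnmt1 CKO replicate 1, 94.7% of its 19 UMIs lay in 1 cell. Cldn18, the claudin of alveolar tight junctions, stood at 104 and 74.8 CPM in Dnmt1 CKO, against 24.1 and 8.88 CPM in wild type (1.99, SE 0.50, edgeR adjusted p = 0.721). In alveolar type 2 cells Fabp5 stood at 1608 to 2219 CPM and Cldn18 at 1458 to 1787 CPM, and the part of alveolar RNA in the secretory values was not tested.
Ier2, an immediate early gene, stood at 292 and 344 CPM in Dnmt1 CKO, against 161 and 102 CPM in wild type (1.23, SE 0.32). Zfp36, which speeds the decay of cytokine RNA, stood at 222 and 283 CPM in Dnmt1 CKO, against 161 and 88.8 CPM in wild type (1.02, SE 0.33). Nfkbia, the inhibitor of NF-kB, stood at 229 and 158 CPM in Dnmt1 CKO, against 112 and 62.2 CPM in wild type (1.04, SE 0.33). Wild type replicate 2 was the lowest of the 4 libraries for all 3 genes.
Cited1, a transcriptional co-regulator, stood at 180.5 and 149.5 CPM in Dnmt1 CKO, against 72.3 and 62.2 CPM in wild type. Actb, the cytoskeletal actin, stood at 8136 and 6656 CPM in Dnmt1 CKO, against 5472 and 4392 CPM in wild type, the smallest of these differences (0.52, SE 0.17). The remaining genes of this direction were Ppp1r14c, Prdx4, Rbm8a and Id1, with log2 fold changes of 0.96 to 1.61. Each had an edgeR adjusted p of 0.784. Fabp5, Cldn18 and Id1 passed the low-count filter by their Dnmt1 CKO levels alone, so the filter favoured this direction for them.

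Among the genes with lower values in Dnmt1 CKO were a secretoglobin, a water channel and oxidising enzymes. Scgb3a1, the secretoglobin of the upper airways, gave 1 and 22 UMIs in Dnmt1 CKO, against 12 and 45 UMIs in wild type (log2 fold change -2.02, SE 0.47, edgeR adjusted p = 0.683). All 12 and all 45 wild type UMIs lay in 1 cell of each library, so this difference is one of a few cells. It was called without Dnmt1 CKO replicate 2 (-3.23) and without wild type replicate 1 (-2.40). Aqp4, the basolateral water channel of airway cells, stood at 97.2 and 80.8 CPM in Dnmt1 CKO, against 201 and 209 CPM in wild type (-1.22, SE 0.29, edgeR adjusted p = 0.683). Its 14 and 40 UMIs in Dnmt1 CKO came from 5 and 16 cells, and its 25 and 47 UMIs in wild type came from 6 and 14 cells.
Aox3, an aldehyde oxidase, stood at 27.8 and 127 CPM in Dnmt1 CKO, against 273 and 306 CPM in wild type (-1.61, SE 0.42). Fmo2, the flavin monooxygenase of lung, stood at 69.4 and 212 CPM in Dnmt1 CKO, against 241 and 662 CPM in wild type (-1.60, SE 0.50). Me1, the malic enzyme that supplies NADPH, stood at 83.3 and 95 CPM in Dnmt1 CKO, against 177 and 178 CPM in wild type (-0.95, SE 0.29). Dnmt1 CKO replicate 1 was the lowest library for all 3 enzymes. Aox3 was called without Dnmt1 CKO replicate 2 (-3.06), without wild type replicate 1 (-1.70) and without wild type replicate 2 (-1.41). Fmo2 was called without Dnmt1 CKO replicate 2 (-2.71) and without wild type replicate 1 (-2.13).
Selenbp1, a methanethiol oxidase that is abundant in club cells, stood at 3131 and 3783 CPM in Dnmt1 CKO, against 4644 and 6168 CPM in wild type (-0.71, SE 0.22, edgeR adjusted p = 0.784). It was seen in every secretory cell. Efnb2, an ephrin ligand, stood at 20.8 and 26.3 CPM in Dnmt1 CKO, against 56.2 and 107 CPM in wild type (-1.56, SE 0.47). The others were Hspb8, Mycbp2, Mettl7a1, Macf1 and Tgoln1, with log2 fold changes of -1.61 to -1.02. Efnb2, Hspb8 and Mycbp2, like Scgb3a1, passed the low-count filter by their wild type levels alone, so the filter favoured this direction for them.

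**Figure D3:**
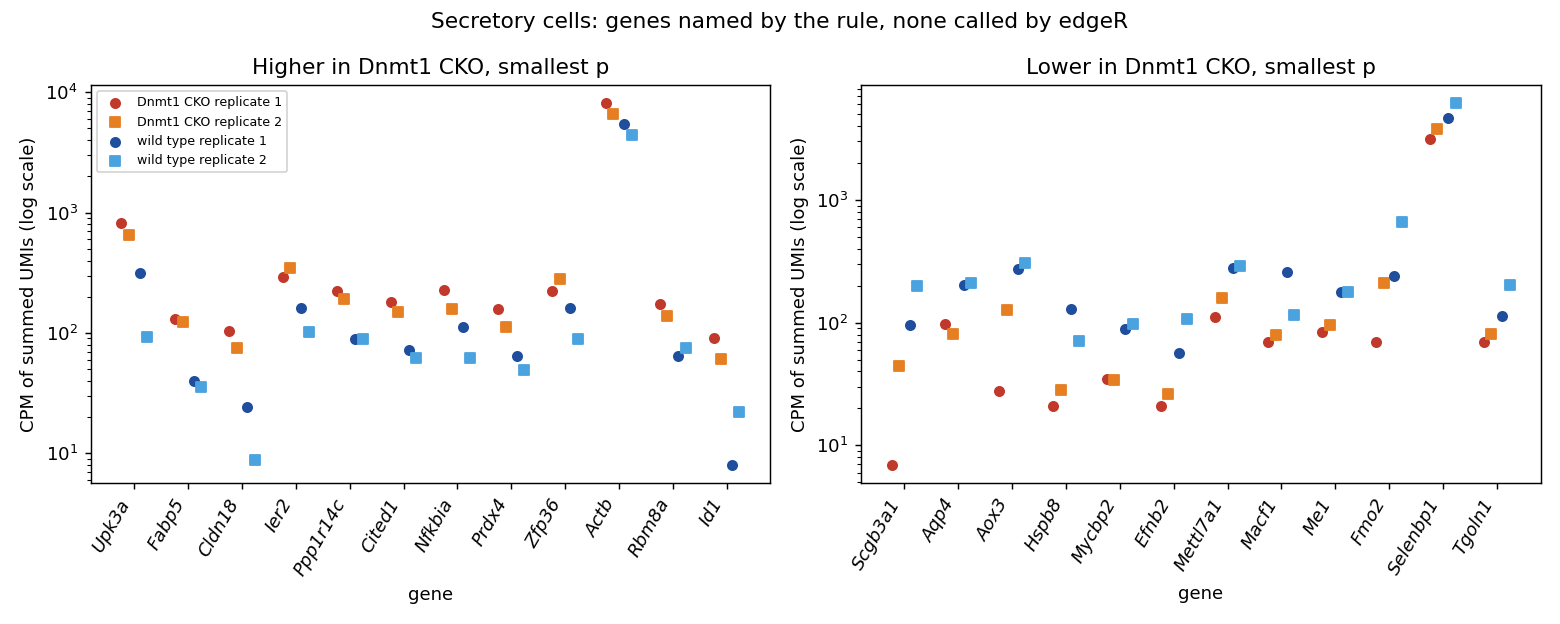
CPM of summed UMIs in secretory cells (log scale) for the 12 genes named in each direction, 1 point per library, the 2 Dnmt1 CKO libraries left of the 2 wild type libraries. Upk3a lies at 819 and 655 CPM in Dnmt1 CKO and at 313 and 93.3 CPM in wild type, the groups do not overlap for any gene drawn since the rule asks for that, and no gene was called.

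Gene lists were read against the background of all 2498 genes tested, of which 0% were called, and no list held a called gene. Of the secretory markers, 15 passed the low-count filter, with a median log2 fold change of -0.19. Hp, haptoglobin, an acute-phase protein that club cells also make, stood at 8830.1 and 7305 CPM in Dnmt1 CKO, against 5649 and 6080 CPM in wild type (0.39, SE 0.17). Iyd, an iodotyrosine deiodinase, stood at 55.5 and 62.6 CPM in Dnmt1 CKO, against 24.1 and 13.3 CPM in wild type (1.38, SE 0.55). Aldh1a1, the retinal dehydrogenase, stood at 382 and 257 CPM in Dnmt1 CKO and at 273 and 306 CPM in wild type, with overlap (0.03, SE 0.32). Hp and Iyd had no overlap between the groups, and neither passed the test. Iyd passed the low-count filter by its Dnmt1 CKO levels alone, so the filter favoured its direction.

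Xenobiotic enzymes are the trait by which club cells are best known. Of 51 such genes outside the rule, 23 passed the low-count filter, 13 with a positive and 10 with a negative log2 fold change, and the median was 0.03. Groups did not overlap for 7 with higher and 4 with lower values in Dnmt1 CKO, beside 16.7% and 16.3% of all genes tested. Adh5, which oxidises formaldehyde bound to glutathione, stood at 146 and 206 CPM in Dnmt1 CKO, against 112 and 84.4 CPM in wild type (0.84, SE 0.32). Gstm1, a glutathione transferase, stood at 174 and 145 CPM in Dnmt1 CKO, against 121 and 88.8 CPM in wild type (0.53, SE 0.30).
Together with Aox3 and Fmo2 these are the 4 members with the smallest p, and 2 of them were higher and 2 lower in Dnmt1 CKO. Por, the reductase that feeds electrons to cytochromes P450, stood at 167 and 277 CPM in Dnmt1 CKO and at 337 and 249 CPM in wild type, with overlap. Several enzymes of the adult organ were near the limit of detection: Cyp2a5 gave 0 and 2 UMIs in Dnmt1 CKO and 0 in wild type, and Cyp2b10 and Adh7 gave 0 in all 92 cells.

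Secreted defence genes were mostly below the filter at this age, and 8 of 35 passed it. All 8 had a negative log2 fold change, with a median of -0.78, and after scaling groups did not overlap for 3 of them. None was called, and Scgb3a1 passed the filter by its wild type levels alone. Over all 2498 genes 1274 had a negative value, and 16.3% were lower without overlap. Wfdc2, a secreted protease inhibitor of airway epithelium, was the most abundant, with 5914 and 6799 CPM in Dnmt1 CKO, against 8654 and 6639 CPM in wild type (-0.31, SE 0.18). Reg3g, an antibacterial lectin, gave 0 and 39 UMIs in Dnmt1 CKO, against 12 and 25 UMIs in wild type (-0.90, SE 0.57). Sftpb, the surfactant protein that club cells share with alveolar cells, stood at 55.5 and 485 CPM in Dnmt1 CKO, against 426 and 1847 CPM in wild type (-2.02, SE 0.73).
A few cells carried several of these genes: 1 cell held 53.4% of the Sftpb UMIs and 80.5% of the Retnla UMIs of wild type replicate 2. All Scgb3a1 and Reg3g UMIs of that library also lay in 1 cell, its deepest, and 1 cell held 90.9% of its Lcn2 UMIs. The 8 genes are thus not separate observations. Bpifb1, a secreted lipid-binding defence protein, gave 9 and 18 UMIs in Dnmt1 CKO and 0 UMIs in wild type, where a count of 0 allows up to 24.1 and 13.3 CPM, below the filter. The gel-forming mucin Muc5ac gave a single UMI in all 92 cells.

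No ion and water transport gene was called, and lower values in Dnmt1 CKO are given for subunits of the sodium channel. Scnn1a, its alpha subunit, stood at 27.8 and 76.8 CPM in Dnmt1 CKO, against 145 and 142 CPM in wild type (-1.16, SE 0.38). Scnn1b, the beta subunit, stood at 41.7 and 52.5 CPM in Dnmt1 CKO, against 88.4 and 124 CPM in wild type (-1.08, SE 0.37). It passed the low-count filter by its wild type levels alone, with 6 and 26 UMIs in Dnmt1 CKO and 11 and 28 UMIs in wild type. The list held 11 genes past the filter, 5 with positive and 6 with negative log2 fold changes, and a median of -0.13. Aqp4, Scnn1a and Scnn1b were its 3 members with an unadjusted p under 0.05.

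Of 30 Notch genes, only Notch2, Hes1 and Aph1a passed the filter. Notch2, a receptor that club cell fate depends on in the mouse, stood at 55.5 and 68.7 CPM in Dnmt1 CKO, against 112 and 111 CPM in wild type (-0.76, SE 0.34, edgeR adjusted p = 0.984). Hes1, the target that represses the neuroendocrine program, stood at 104 and 137 CPM in Dnmt1 CKO, against 161 and 173 CPM in wild type (-0.44, SE 0.30). Both were lower in both Dnmt1 CKO libraries and neither passed the test. At 3000 UMIs a cell Notch2 was seen in 9.09% and 20.5% of Dnmt1 CKO cells, against 37.5% and 47.1% of wild type cells (unthinned, 38.5% and 36.0% against 66.7% and 60%).

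Airway epithelial genes, keratins and claudins among them, had 16 of 25 members past the filter, with a median log2 fold change of 0.13. Epcam, an adhesion protein of epithelia, stood at 757 and 584 CPM in Dnmt1 CKO, against 402 and 466 CPM in wild type (0.54, SE 0.32). Sox2 stood at 139 and 86.9 CPM in Dnmt1 CKO and at 169 and 84.4 CPM in wild type (-0.22, SE 0.35). Nkx2-1, the lung lineage factor, stood at 132 and 135 CPM in Dnmt1 CKO and at 153 and 164 CPM in wild type (-0.28, SE 0.29). Of 40 interferon response genes 4 passed the filter, all with a positive log2 fold change and a median of 0.47. None of the 4 was called (lowest edgeR adjusted p = 0.79), and over all 2498 genes 1224 had a positive value. Ifitm3, a membrane protein that blocks virus entry, stood at 215 and 247 CPM in Dnmt1 CKO, against 112 and 133 CPM in wild type (0.81, SE 0.30).

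Of 33 imprinted genes in the files 9 passed the filter, with a median of 0.31. Kcnq1ot1, the antisense RNA that silences its imprinted domain, stood at 326 and 422 CPM in Dnmt1 CKO, against 651 and 711 CPM in wild type (-0.89, SE 0.33). H19 stood at 889 and 156 CPM in Dnmt1 CKO and at 249 and 48.9 CPM in wild type, with overlap (1.72, SE 0.68). H19 was thus higher in replicate 1 of each group. The other lists gave medians between -0.67 (acute phase, 7 genes passed) and 0.04 (dissociation and immediate early, 21 genes passed). They covered glucocorticoid response (-0.07, 12 genes passed), signals between epithelium and mesenchyme (-0.20, 12), protein secretion and the unfolded protein response (-0.03, 20), lipid synthesis (-0.17, 7), p53 targets (-0.04, 5), the cell cycle (-0.06, 4) and DNA methylation machinery (-0.17, 3). Marker lists of other cell types gave 0.57 for alveolar type 2 (5 passed), -0.17 for alveolar type 1 (7), -2.21 for erythroid (4), -0.71 for mesenchymal (3) and 0.01 for basal genes (2). Kdr was the one endothelial gene to pass (-0.34) and Sec14l3 the one ciliated gene (-0.61), and no neuroendocrine, immune or germline gene passed. In none of these was a gene called, which is also the background of 0%.

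Whether secretory cells differed from other epithelial cells in their response was tested as an interaction in edgeR, with the library as a term. Against alveolar type 2 cells (242 and 648 in Dnmt1 CKO, 415 and 381 in wild type), 16 of 12089 genes were called (0.132%), 7 with a higher and 9 with a lower change in secretory cells. Against ciliated cells (19 and 62 in Dnmt1 CKO, 13 and 30 in wild type), 12 of 5292 genes were called (0.227%), 2 higher and 10 lower. With RLE in place of TMM scaling, the calls against alveolar type 2 cells numbered 24, 8 higher and 16 lower. Both interactions share the secretory sums, so the same secretory values enter both. The other classes also held barcodes that met the Scgb1a1, Scgb3a2 and Cyp2f2 thresholds. Among alveolar type 2 cells these numbered 7 and 31 in Dnmt1 CKO and 5 and 14 in wild type. Among ciliated cells they numbered 3 and 18 in Dnmt1 CKO and 4 and 10 in wild type. The classes are thus not fully distinct, and the part of these barcodes in the differences was not tested. With each secretory cell thinned to at most 3000 UMIs, 0 genes were called against alveolar type 2 cells and 5 against ciliated cells. Within alveolar type 2 cells 1 gene was called between genotypes, and likewise 1 within ciliated cells.

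Upk3a was called in both interactions, at 1.83 on the log2 scale against alveolar type 2 cells (SE 0.34, edgeR adjusted p = 0.000153) and 1.83 against ciliated cells (SE 0.42, edgeR adjusted p = 0.00755). Both calls rested on wild type replicate 2. Without it the difference was -0.80 against alveolar type 2 cells and 0.03 against ciliated cells, neither called. Nor was it called without Dnmt1 CKO replicate 1 (1.16 against alveolar type 2 cells and 1.97 against ciliated cells), and against ciliated cells it was called again under 3 of 9 alternatives.
Saa3, an acute-phase serum amyloid A, stood at 34.7 and 72.7 CPM in Dnmt1 CKO secretory cells, against 104 and 129 CPM in wild type ones. In alveolar type 2 cells it stood at 177 and 49.2 CPM in Dnmt1 CKO, against 4.14 and 20.3 CPM in wild type. It was thus lower in Dnmt1 CKO in secretory cells and higher in alveolar type 2 cells, in both cases without overlap, and the difference of -3.53 was called (SE 0.41, edgeR adjusted p = 1.24e-13) and was called again under 8 of 9 alternatives. The exception was thinning the secretory cells. In wild type replicate 1 all 13 of its UMIs lay in 1 secretory cell, and in wild type replicate 2 its 29 UMIs lay in 3 cells.

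The haemoglobin genes Hbb-bs, Hbb-bt, Hba-a1 and Hba-a2 were called in both interactions, with differences of -2.54 to -2.11 against alveolar type 2 cells and -5.52 to -4.54 against ciliated cells. Hbb-bs, the adult beta globin, gave 50 and 565 UMIs in Dnmt1 CKO secretory cells, against 909 and 56 UMIs in wild type ones. A single cell held 97.9% of the 909 UMIs of wild type replicate 1, and a single cell held 72.0% of the 565 UMIs of Dnmt1 CKO replicate 2. Without wild type replicate 1 the differences against alveolar type 2 cells turned positive, at 0.81 to 1.91, and none was called. Without Dnmt1 CKO replicate 1 they were -1.62 to -1.34, and none was called. Against ciliated cells Hbb-bs was called under all 9 alternatives and the other 3 genes under 8, the exception being the fit without wild type replicate 1.
Ciliated cells of Dnmt1 CKO replicate 1 held 9332 CPM of Hbb-bs, against 969 CPM in those of replicate 2 and 183 and 101 CPM in wild type. In the barcodes with Cdh5 or Ptprc, erythroid genes summed to 16126 and 6705 CPM in Dnmt1 CKO and to 11624 and 6405 CPM in wild type. The part of blood RNA in these calls was not tested.

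The remaining calls against alveolar type 2 cells were Spink5, Fabp5, Id1, Lyz2, Calca and Id3 with a higher change and Lypd2, Rbp4, Hspb8 and Sftpb with a lower one. Calca, the neuroendocrine peptide gene, gave 0 and 21 UMIs in Dnmt1 CKO secretory cells and 1 and 0 in wild type ones, and all 21 UMIs lay in 1 cell. That cell held 12 Scgb1a1, 28 Scgb3a2 and 1 Cyp2f2 UMI among 5803. Lyz2, a lysozyme of alveolar and myeloid cells, gave 3 and 15 UMIs in Dnmt1 CKO secretory cells and 0 and 1 in wild type ones. In alveolar type 2 cells Lyz2 stood at 413 and 1857 CPM in Dnmt1 CKO, against 1794 and 2918 CPM in wild type.
Rbp4, the retinol carrier, stood at 250 and 311 CPM in Dnmt1 CKO secretory cells, against 281 and 577 CPM in wild type ones. A single cell held 74.3% and 73.8% of its UMIs in the wild type libraries, and without the deepest cell of each library its difference was 0.13 and not called. Against ciliated cells the remaining calls were Gm20186 with a higher change and Eln, Mfap4, C3, Dusp6 and Meg3 with a lower one. All 13 Eln UMIs of wild type replicate 1 lay in 1 secretory cell, and Meg3 had a difference of 0.04 without wild type replicate 2.

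How the cells differ among themselves was described after thinning each to 3000 UMIs. The variance over the mean was computed in each library for 2476 genes with a mean of at least 0.05 UMIs, and genes were ordered by the lowest of the 4 values. Counting alone gives a value near 1, and the median gene's lowest value was 0.84. Scgb3a2 led with 76.7 and Scgb1a1 followed with 23.2, but both belong to the rule, and at equal relative spread this measure grows with a gene's mean, so the order is not one of relative spread. Outside the rule the order was Malat1, a nuclear RNA (11.1), Hp (6.32), Wfdc2 (4.10), Selenbp1 (3.92) and Tmsb4x, an actin-binding peptide (3.02).
Scgb3a2 ranged from 3 to 416 and from 2 to 409 UMIs of 3000 in the Dnmt1 CKO libraries, and from 7 to 361 and from 12 to 381 in the wild type libraries. Hp ranged from 3 to 49 and from 1 to 53 UMIs in Dnmt1 CKO, and from 4 to 37 and from 1 to 50 in wild type. These ranges were alike in both genotypes. Cdkn1c, a cell cycle inhibitor, had a value of 16.2 in Dnmt1 CKO replicate 2, against 3.91 in Dnmt1 CKO replicate 1 and 2.40 and 2.33 in wild type, with a highest cell of 57 UMIs. At 2000 UMIs a cell, 9 of the 15 genes named were named again.

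**Figure D4:**
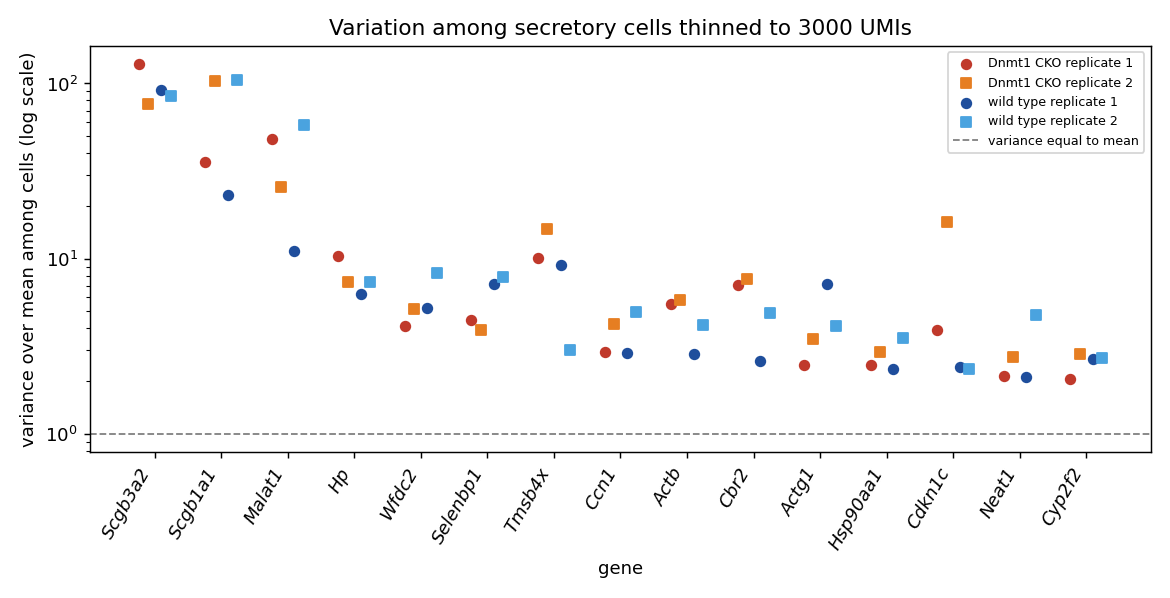
Variance over mean among secretory cells thinned to 3000 UMIs (log scale) for the 15 genes with the highest lowest value, 1 point per library, the dashed line marking a variance equal to the mean. Genes are ordered by their lowest value, led by Scgb3a2 (76.7) and Scgb1a1 (23.2). Malat1 lies above Scgb1a1 in Dnmt1 CKO replicate 1 (48.2 against 35.5), and Cdkn1c stands out in Dnmt1 CKO replicate 2 (16.2).

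Some of these genes varied together, which is given as a description of 11 and 44 cells in Dnmt1 CKO and 8 and 17 cells in wild type that share a library and a fixed depth. Scgb3a2 and Wfdc2 had Spearman correlations of 0.46 and 0.76 in Dnmt1 CKO and of 0.76 and 0.75 in wild type. Scgb3a2 and Tmsb4x had correlations of -0.45 and -0.32 in Dnmt1 CKO and of -0.57 and -0.33 in wild type. Of 105 pairs among the 15 genes, 21 had the same sign in all 4 libraries. Scgb1a1 and Scgb3a2 were not among them, with -0.03 and 0.34 in Dnmt1 CKO and -0.60 and 0.67 in wild type. Unrelated genes would also agree in sign for some pairs, and the 21 were not set against such a number. At a fixed depth a gene that takes a large share leaves less for the others, and the part of this in the negative values was not tested.

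A pair of small groups stood out among the cells, both picked after their values were seen. At least 5 Scgb3a1 UMIs were found in 4 of 92 cells, 0 and 2 in Dnmt1 CKO and 1 and 1 in wild type. The same 4 cells held every Reg3g UMI of the 92 cells, with 28 and 11 Reg3g UMIs in the Dnmt1 CKO cells and 12 and 25 in the wild type cells. Their Scgb3a1 counts were 13 and 8 UMIs in the Dnmt1 CKO cells and 12 and 45 in the wild type cells, and the other 88 cells held 2 Scgb3a1 UMIs in all.
All 4 cells were secretory by the rule's genes, with 51 to 4397 Scgb1a1 and 428 to 4667 Scgb3a2 UMIs. Lcn2, an iron-scavenging defence protein, stood at 381 CPM in them, against 29.8 CPM in the other 88 cells, and Retnla at 1274 CPM, against 234 CPM. The cell of wild type replicate 2 was the deepest of all, with 64301 UMIs, and it carried most of the UMIs of the 4. None of the 4 belonged to the Upk3a group described next.

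At least 0.1% of the UMIs came from Upk3a in 8 of 92 cells, 1 and 6 in Dnmt1 CKO and 0 and 1 in wild type. Cells of Dnmt1 CKO replicate 2 made up most of the group, as they did of all members. Upk3a stood at 2645 CPM in these cells, against 250 CPM in the other 84, which follows from how they were picked. Sfn, an epithelial 14-3-3 protein, stood at 555 CPM, against 238 CPM, and Ifitm3 at 376 CPM, against 178 CPM. Bpifb1 stood at 198 CPM, against 6.80 CPM, but 2 of the 8 cells held all its UMIs in the group. Krt15 stood at 461 CPM, against 864 CPM. These levels pool cells of different libraries, and Ifitm3 was higher in both Dnmt1 CKO libraries over all secretory cells. A trait of the group and a difference between libraries cannot be told apart here. Upk3a UMIs were also spread beyond this group, in 9 and 31 secretory cells of Dnmt1 CKO and in 6 and 6 of wild type, and the highest cell held 39.0% and 28.7% of them in Dnmt1 CKO and 33.3% and 28.6% in wild type.

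**Figure D5:**
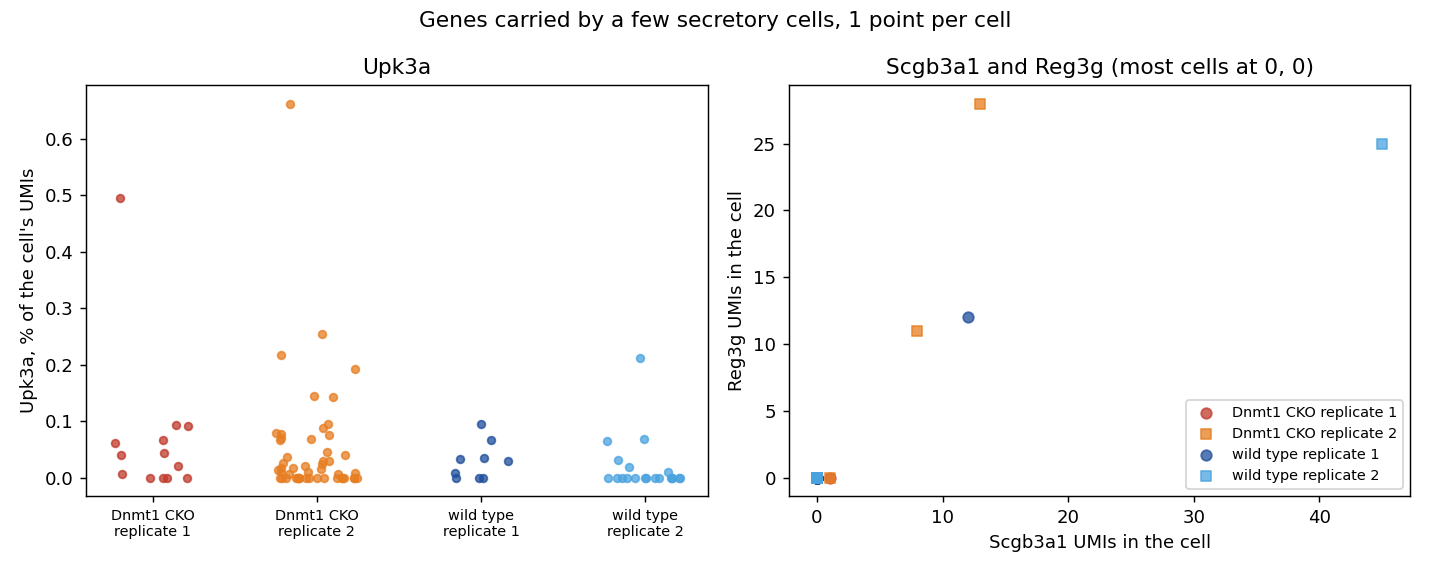
Left, the percent of each secretory cell's UMIs that came from Upk3a, by library. Right, Reg3g UMIs against Scgb3a1 UMIs, 1 point per cell: the 4 cells with at least 5 UMIs of Scgb3a1 (0 and 2 in Dnmt1 CKO, 1 and 1 in wild type) are those with 11 to 28 UMIs of Reg3g, and the other cells lie at 0 Reg3g UMIs.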

How the data were processed

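RNA of 4 lung suspensions was captured as 3′ tags in droplets (10X Chromium), per the labels' protocols. The authors deposited UMI counts per gene and barcode, made with Cell Ranger 3.1.0 and bcl2fastq 2.20 against GRCm38.p6, and Seurat is also listed, per the submitters' processing notes. Of 55471 gene identifiers, 54573 were found in the GENCODE annotation used for positions.

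The members and the 27 gene and marker lists were chosen with earlier results of these data known. Raw counts of the 92 cells were summed per library. Genes were filtered with filterByExpr, scaled by TMM and tested in edgeR 4.0.16 by quasi-likelihood (limma 3.58.1, R 4.3.3), adjusted over all genes tested and called under 0.05. A positive log2 fold change is higher in Dnmt1 CKO (prior count 2), and its SE was taken from the F statistic. Interactions had the library and class as terms. Alveolar type 2 cells had UMIs in at least 4 of the 6 alveolar genes, and ciliated cells in at least 3 of the 6 ciliated genes. The script was tested on simulated data.

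Genes were named by a rule: Dnmt1, the 12 smallest p in each direction with no overlap and an average log2 CPM of at least 4, the 4 smallest p of each list, the 5 smallest of each interaction, and the 20 largest ratios to other epithelium. Gene models, haemoglobin, mitochondrial and rule genes were left out of the first part. Other genes were picked after their values were seen. Alternatives were other scaling, filters, members and tests, each library left out, a replicate block, sex, and DESeq2 1.42.0. Leaving out each library's deepest cell and thinning each secretory cell to 3000 UMIs were chosen after seeing the data. UMIs are counted molecules; intervals, and the limit of 3 counts that a count of 0 allows, cover counting error only. Python 3.11.15 and scanpy 1.11.5 were used.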

Additional observations from a re-analysis of the deposited data

Results flagged for a closer look

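The difference between the Dnmt1 CKO change in secretory cells and that in another class, tested as an interaction in edgeR, passed the threshold for the following genes, each a log2 difference. Against alveolar type 2 cells it was -3.53 for Saa3, -2.54 for Hba-a2, -2.40 for Hbb-bt, -2.37 for Hbb-bs and -2.11 for Hba-a1. It was 1.83 for Upk3a, 1.82 for Spink5, 2.04 for Fabp5, 2.37 for Id1, 4.03 for Lyz2, 4.92 for Calca and 3.75 for Id3. It was -1.43 for Lypd2, -1.43 for Rbp4, -1.89 for Hspb8 and -1.50 for Sftpb. Against ciliated cells it was -5.52 for Hbb-bs, -4.94 for Hba-a2, -4.61 for Hbb-bt, -4.54 for Hba-a1 and -3.65 for Saa3. It was 3.68 for Gm20186 and 1.83 for Upk3a, and -3.08 for Eln, -2.62 for Mfap4, -2.61 for C3, -2.23 for Dusp6 and -1.64 for Meg3. The adjusted p ran from 1.24e-13 to 0.0331 against alveolar type 2 cells and from 5.44e-28 to 0.0373 against ciliated cells. For Calca, Id3 and Lyz2, whose wild type secretory cells held 0 or 1 UMI a library, the fitted value depends on the prior count and is no bound.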

How the results depend on the processing

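Between Dnmt1 CKO and wild type secretory cells, 18 genes were called without a low-count filter and 19 with the replicate block. The labels do not say what the replicate numbers stand for. Same-numbered libraries had deviations correlated at 0.09, and 2 pairs cannot show whether the numbers mark a pairing or a batch. Leaving out 1 library, where the lone library is assumed to vary like the other group, gave 9 to 36 calls. Against alveolar type 2 cells, 16 calls became 9 without the filter, 8 without the deepest cells, 0 with thinned cells and 4 to 16 without 1 library. Against ciliated cells, 12 calls became 6 without the deepest cells, 5 with thinned cells and 5 to 8 without 1 library. The cause was not tested. Selenbp1 had a log2 fold change of 0.41 with tighter exclusion, where 129 genes could be tested. Without 1 library the difference from alveolar type 2 cells ran from -4.50 to 0.81 for Hba-a2, -4.44 to 1.79 for Hbb-bt, -4.94 to 0.84 for Hbb-bs, -4.42 to 1.91 for Hba-a1, -0.80 to 3.87 for Upk3a, -1.93 to 2.21 for Spink5 and -1.31 to 8.70 for Calca, and that from ciliated cells from -2.83 to 0.041 for Meg3. Rbp4 reached 0.13 without the deepest cells. The share in Dnmt1 CKO replicate 2 was 2.015% with looser members, and 9 of the 15 most variable genes were named again at 2000 UMIs. Of the other values for the genes called in an interaction, 140 kept their call and direction and 103 kept the direction alone. With 9 to 50 cells a library, depth limits every statement on genes seen in a few cells.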

Other observations

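Retnla, a secreted protein of airway and alveolar epithelium, stood at 27.8 and 368 CPM in Dnmt1 CKO secretory cells and at 80.4 and 546 CPM in wild type ones, so replicate 2 was the higher library of each group. Spink5, a protease inhibitor, stood at 27.8 and 236 CPM in Dnmt1 CKO secretory cells and at 40.2 and 164 CPM in wild type ones, again with replicate 2 higher in each group. Meg3, an imprinted RNA, stood at 250 and 826 CPM in Dnmt1 CKO secretory cells, against 466 and 2660.1 CPM in wild type ones, and a single cell held 75% and 24.2% of its UMIs in Dnmt1 CKO and 36.2% and 61.8% in wild type. Replicate 2 was male in wild type and female in Dnmt1 CKO.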
